A study of Mus musculus with 1152 samples.

Results

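The Ptx3+ capillary-like class was made up of lymphatic endothelial cells (LECs) of the nasopharyngeal lymphatic plexus (NPLP) of aged C57BL/6 mice, a bed of thin lymphatics through which cerebrospinal fluid leaves the head. CD31+ PDPN+ cells had been isolated by fluorescence-activated sorting, with each cell made into a Smart-seq3 library, a full-length single-cell method, and according to the study's methods the cells came from mice of both sexes that were pooled. All cells analysed belonged to this single aged, untreated group, with no younger mice set beside it here. Each class had 6 or 5 genes, whose values were converted to z-scores over all cells analysed and averaged into a class score. A cell was placed in the class with its highest score. The Ptx3+ score averaged Ptx3, Stab2, Stab1, Itih5, Mrc1 and Gpx3, and it chose 21.2% of the cells analysed (exact 95% binomial interval 18.1 to 24.5%, which covers counting error only), 74 cells from blocks 1 to 6 and 65 from blocks 7 to 12 of the cell numbers in the labels, taken in 12 blocks of 96 consecutive numbers. The other cells were Fndc1-type capillary-like (17.8% of all cells), Ptn-Anxa3-Stc1 (17.4%), precollecting-like (22.9%, 150 cells), upstream-valve-like (11.1%, 73 cells) and downstream-valve-like (9.60%, 63 cells).

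Lymphatic capillaries are the blind-ended vessels that take up fluid, macromolecules and immune cells from tissue, and they drain into precollecting vessels with valves. Their endothelium carries the hyaluronan receptor Lyve1, and in lymph nodes and several other organs a Ptx3+ subset with scavenger receptors has been described as immune-interacting. Stab1 and Stab2 are stabilins and Mrc1 is the mannose receptor, all of which bind and internalise extracellular ligands. Ptx3 is a secreted pattern-recognition protein of the pentraxin family, Itih5 a hyaluronan-binding heavy chain and Gpx3 a secreted selenium-dependent peroxidase.

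No label named the mouse from which a cell came, so the cells were treated as 1 pool without replicates, and no p-value was computed. Counts of genes are of those past a limit of fold between cells of this pool, without a replicate check. Values below are means or shares over cells of this pool. Reads per cell ranged from 9066 to 6051147 in Ptx3+ cells (median 134552) and from 7046 to 10727631 in the other cells (median 153585). A median of 3629 genes was detected per Ptx3+ cell and 3997 per other cell. Because depth differed, shares given for thinned cells were computed after each cell was thinned to 20000 reads, which left out 17 of the Ptx3+ cells and 71 of the other cells. Detection of single genes is given for thinned cells, and the shares for Xist, the number of class genes and the marker lists are for unthinned cells. Xist, the transcript of the inactive X chromosome in females, was detected in 92.8% of the cells in both sets, and a Y-linked gene in 2 Ptx3+ cells, both of which also had Xist. Among all cells analysed, 4 had a Y-linked read, and all 4 also had Xist. Whether the cells analysed came from both sexes, as the methods state for the pool, could not be settled.

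The genes that chose the cells are given first, as a description. Stab2 ranged from 0 to 60.8 reads per 10000 among Ptx3+ cells with a median of 4.76, and its median was 0 in the other cells. Its mean was 7.07 in Ptx3+ cells and at most 1.08 in any other class, that of Ptn-Anxa3-Stc1 cells. Stab1 was not restricted to the class, with means of 48.4 in Ptx3+ cells and 18.2 to 27.3 in the other classes, and it was detected in all thinned Ptx3+ cells and in 99.8% of the other thinned cells. Stab2 was low but not absent elsewhere, with 17.1 reads per 10000 in 1 precollecting-like cell. Both genes helped to choose the cells, so their differences between classes are partly set by the rule.

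Gpx3 had a mean of 6.24 reads per 10000 in Ptx3+ cells (median 2.82, highest 87.02) and at most 0.563, in Fndc1-type cells. Itih5 had means of 2.76 and at most 0.567, and Mrc1 had means of 2.60 and at most 1.18, both again highest outside the class in Fndc1-type cells. For these 3 genes the Fndc1-type capillary-like cells were therefore the next in order. At 20000 reads, Mrc1 was detected in 75.4% of Ptx3+ cells (interval 66.8 to 82.8%) and 46.6% of Fndc1-type cells.

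Ptx3 itself was the sparsest of the 6 genes. It was detected in 30.3% of thinned Ptx3+ cells (22.3 to 39.3%) and in 3.59% of the other thinned cells (2.06 to 5.76%), and its mean was 0.699 against 0.0491 reads per 10000. Most cells of the class thus had no Ptx3 read at this depth, so membership rested on the 6 genes together. A median of 5 of the 6 genes was detected in Ptx3+ cells and 2 in the other cells, at least 4 in 82.01% and 17.8% of cells, respectively, and all 6 in 31 Ptx3+ cells.

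**Figure D1:**
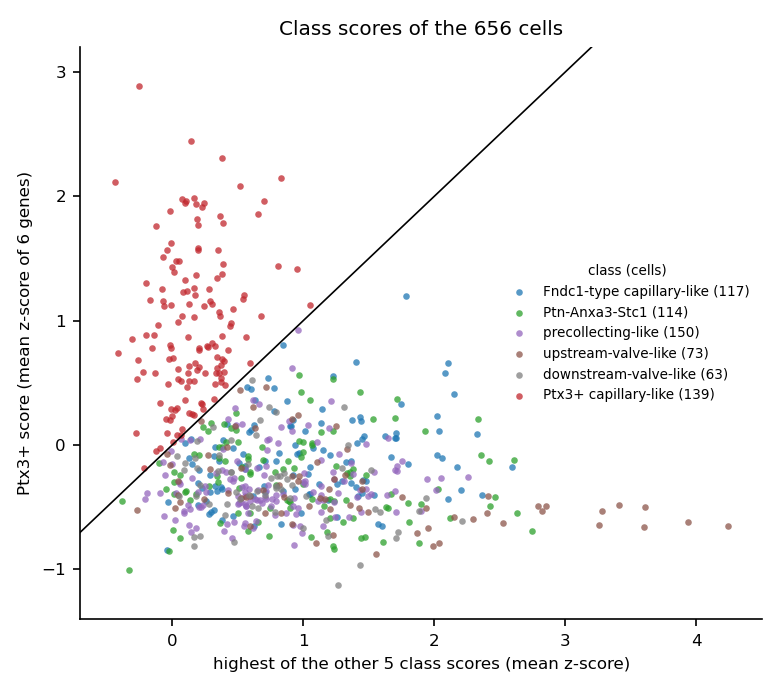
Ptx3+ score of each cell analysed (vertical axis, mean z-score of 6 genes) against the highest of its other 5 class scores (horizontal axis), coloured by class. Cells above the line, where both scores are equal, form the Ptx3+ class (21.2% of all cells), and the cloud is continuous across the line, with 22 Ptx3+ cells and 29 other cells within 0.2 of it.

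The border of the class was not sharp. The Ptx3+ score ranged from -0.18 to 2.88 among the chosen cells (median 0.871), and the gap to the highest other score was 0.013 z-score units in the Ptx3+ cell nearest to the border and -0.021 in the nearest other cell. The second-highest score of Ptx3+ cells was downstream-valve-like in 52 cells, Fndc1-type in 33, precollecting-like in 24, upstream-valve-like in 23 and Ptn-Anxa3-Stc1 in 7. Across 9635 genes, the mean profile of the class correlated with those of the other classes at Pearson's r of 0.944 (upstream-valve-like) to 0.962 (downstream-valve-like), values that describe genes of 1 pool and do not separate the closest classes. Unsupervised Louvain clustering placed 83.5% of the Ptx3+ cells in a single cluster, of which they made up 56.6%, and 14 in a cluster of 33 cells.

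Angpt2, a ligand of the Tie2 receptor that was used in the downstream-valve score, did not follow that label. Its mean was 11.5 reads per 10000 in Ptx3+ cells, 10.6 in upstream-valve-like cells and 4.497 in downstream-valve-like cells, and it was detected in 77.9% of thinned Ptx3+ cells (69.5 to 84.9%). Reln, a secreted glycoprotein of the Fndc1-type score, had a mean of 18.96 in Ptx3+ cells, below 25.2 in Fndc1-type cells and above 7.12 to 10.9 in the remaining classes. Ccl21a, the chemokine that guides dendritic cells into lymphatics, had means of 3.16 and 4.78, respectively, though reads of this gene may be shared with near-identical copies. The downstream-valve score without Angpt2 was not computed.

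The 100 bases upstream of the RefSeq start sites (GRCm38.p6) are shown for the 3 of the 6 genes whose window holds no GENCODE exon, and for Selp and Aqp1, 2 of the genes described below, to set the starts of genes that share a class beside each other. Capitals mark GGAA or its complement TTCC, the core recognised by ETS factors, which include endothelial regulators such as Erg and Fli1.
Ptx3, chr3:66219787-66219886, plus strand: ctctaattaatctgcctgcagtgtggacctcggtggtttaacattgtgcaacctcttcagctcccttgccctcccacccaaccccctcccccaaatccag
Stab1, chr14:31168642-31168741, minus strand: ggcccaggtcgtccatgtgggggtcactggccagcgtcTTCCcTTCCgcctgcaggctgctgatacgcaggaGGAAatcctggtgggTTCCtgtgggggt
Itih5, chr2:10153443-10153542, plus strand: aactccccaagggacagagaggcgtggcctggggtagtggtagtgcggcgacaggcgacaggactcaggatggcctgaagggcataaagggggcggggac
Selp, chr1:164115164-164115263, plus strand: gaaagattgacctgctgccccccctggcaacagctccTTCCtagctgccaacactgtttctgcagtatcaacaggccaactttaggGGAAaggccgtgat
Aqp1, chr6:55336199-55336298, plus strand: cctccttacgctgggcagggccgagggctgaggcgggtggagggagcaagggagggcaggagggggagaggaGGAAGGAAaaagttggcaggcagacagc
The ETS core was in the windows of Stab1, Selp and Aqp1 and not in those of Ptx3 and Itih5, and it occurred in 66.7% of all 32418 windows. Of the 6 class genes 4 had it, and of the 12 named higher genes with a window 8 had it, shares close to that of all windows. The other letters searched, on both strands and with overlaps allowed, were ACAAT (SOX core, in 1 of the 6 class genes, that of Ptx3, and 11.7% of all windows), CANNTG (E-box, 2 of 6 and 34.2%), TGANTCA (AP-1, 0 of 6 and 2.75%), AGATAA for GATA factors (0 of 6 and 3.62%) and TATAAA for the TATA box (0 of 6 and 5.55%).

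The first comparison asked which other genes differed in level between Ptx3+ cells and all other cells. A gene was counted when its mean reads per 10000, with 0.1 added to both, differed by at least 1.5 times and it was detected in at least 10% of the higher set. Genes of all 6 class scores were left out. By this rule 8.66% of 10103 genes were higher and 6.17% were lower in Ptx3+ cells, with a median log2 ratio of 0.03 over all genes compared. Because these are the same cells whose genes chose the class, these shares are the background against which lists are read, and not a test. The ratio lay on the same side of 1 in blocks 1 to 6 and in blocks 7 to 12 of the cell numbers for 91.3% of the higher and 98.6% of the lower genes. The genes had been counted on these same cells, so a shared side is partly set by the count and is not a replication. The labels do not say what the numbers stand for.

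Bmp7, a bone morphogenetic protein, ranged from 0 to 34.2 reads per 10000 in Ptx3+ cells with a mean of 2.06, against 0.126 in the other cells, and was 9.56 times higher with the offset of 0.1. It was detected in 43.4% of thinned Ptx3+ cells (34.5 to 52.7%) and in 6.95% of the other cells (4.77 to 9.72%). Sema7a, a membrane-anchored semaphorin, was 5.79 times higher and was detected in 62.3% (53.1 to 70.9%) against 10.3% (7.65 to 13.5%). Adamts15, a secreted metalloprotease that cleaves proteoglycans, was 5.19 times higher and Thbs1, the matricellular protein thrombospondin 1, was 3.70 times higher. In each gene the lowest Ptx3+ cell was at 0, so the 2 sets of cells overlapped and differed in how many cells carried reads as well as in level.

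Aqp1, a water channel, was detected in nearly every Ptx3+ cell, though its levels overlapped between the classes. Its median was 64.2 reads per 10000 in Ptx3+ cells (mean 76.9, highest 248.6) and 2.46 in the other cells (mean 17.1), and it was detected in 99.2% of thinned Ptx3+ cells (95.5 to 100%) against 69.1% (64.5 to 73.3%). The next highest class means were 24.6 in Fndc1-type and 24.1 in Ptn-Anxa3-Stc1 cells, and the lowest was 7.45 in precollecting-like cells. Igfbp4, a binding protein for insulin-like growth factors, likewise had a median of 18.7 against 4.66 reads per 10000 and was detected in 98.4% of thinned Ptx3+ cells. Aqp1 and Igfbp4 were therefore detected in most cells of the class, and Bmp7 in fewer.

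F8, coagulation factor VIII, which endothelial cells secrete, was 4.17 times higher, with means of 2.87 and 0.611 reads per 10000 and detection in 75.4% (66.8 to 82.8%) and 23.5% (19.7 to 27.8%) of thinned cells. Selp, the leukocyte adhesion receptor P-selectin, was 5.68 times higher and was detected in 31.97% (23.8 to 41.02%) and 9.64% (7.07 to 12.8%). Exoc3l2, related to a subunit of the exocyst that tethers secretory vesicles, was 8.76 times higher, with detection in 34.4% and 2.47% and a class mean of at most 0.124 outside the Ptx3+ cells. Kcnj8, a subunit of ATP-sensitive potassium channels, was 3.25 times higher, and Scn3a, a voltage-gated sodium channel subunit, 3.54 times higher.

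The other 9 of the 20 largest ratios covered signalling, vesicle and actin proteins. They were Rasa4, a Ras GTPase-activating protein (4.22 times), Prune2 (4.08 times), Ifitm10 (3.87 times), Gpnmb, a lysosomal and surface glycoprotein (3.23 times), Myo5b, a vesicle motor (3.23 times), Cpne7, a calcium-dependent membrane-binding protein (3.11 times), Ablim3, an actin-binding protein (2.997 times), Trp53inp2, a regulator of autophagy (2.94 times), and Pcdhb9, a clustered protocadherin with close relatives whose reads it may share (2.90 times). All 20 were at least 1.5 times higher than in Fndc1-type and in Ptn-Anxa3-Stc1 cells as well, which the rule for naming them required only as a direction. No such comparison was made with downstream-valve-like cells alone, whose mean profile correlated most with that of the class (Pearson's r of 0.962).

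**Figure D2:**
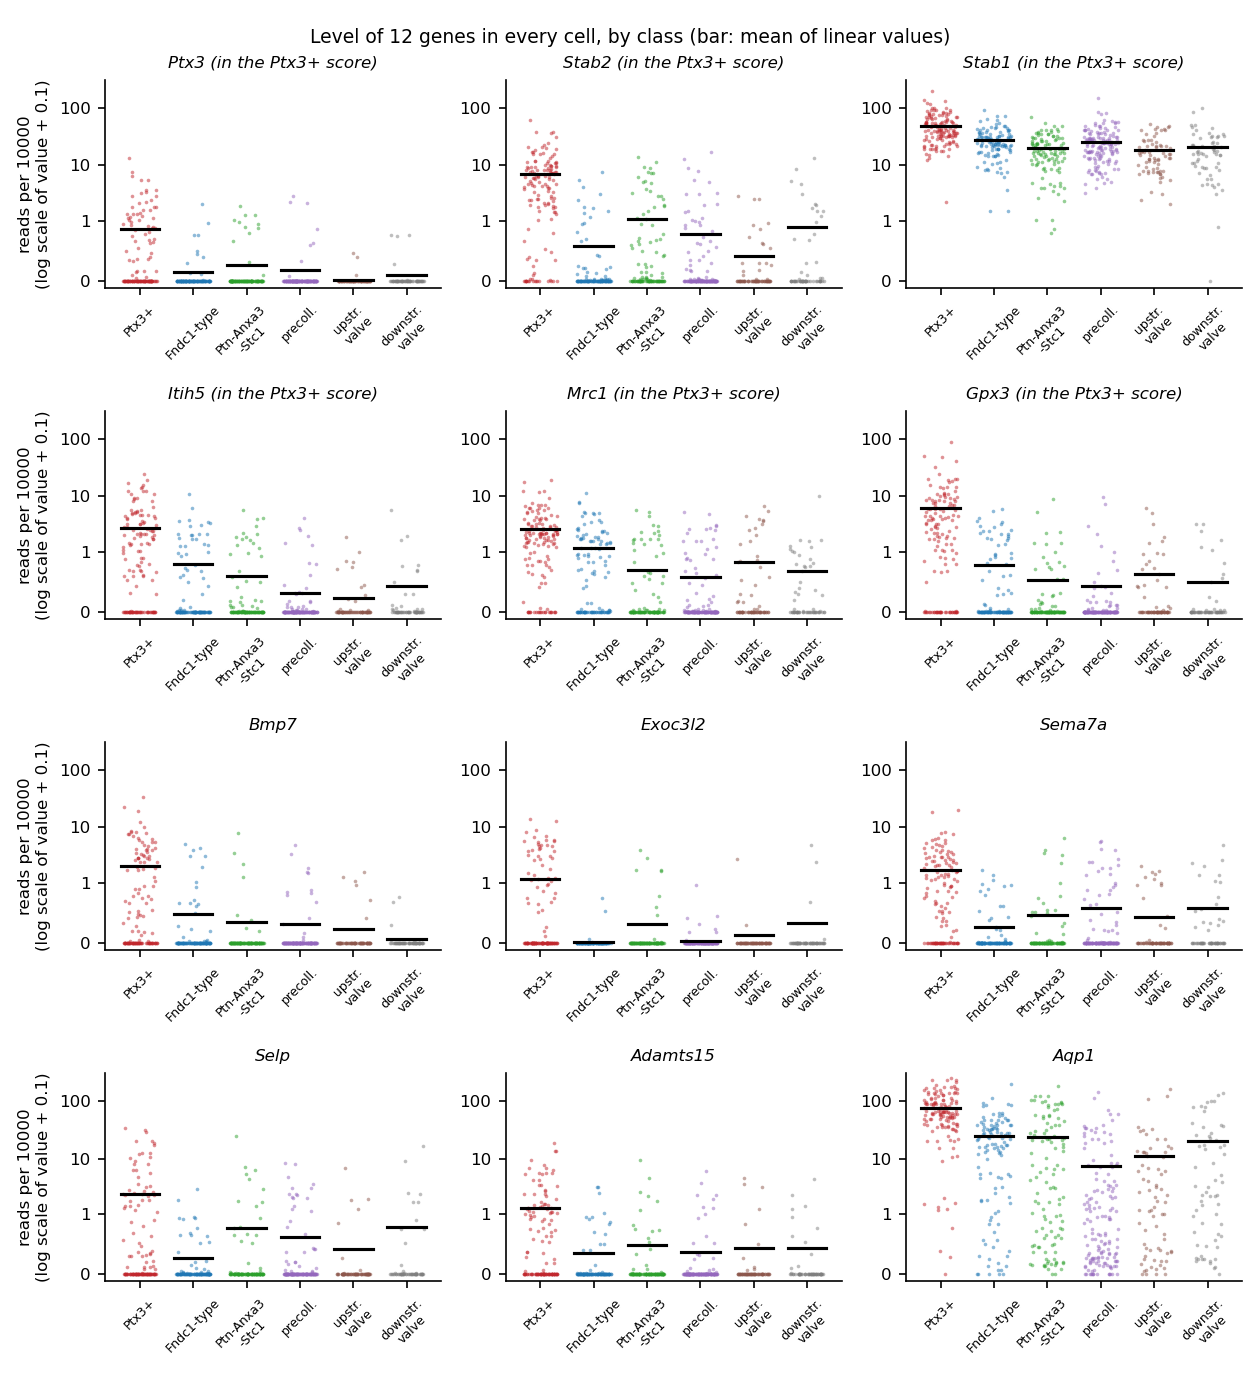
Level of 12 genes in each cell analysed by class, in reads per 10000 on a log scale with 0.1 added; black bars are means of the linear values. The first 6 panels are the genes of the Ptx3+ score and the others the 6 largest ratios outside it; the classes overlap in every panel, and in most panels many Ptx3+ cells lie at 0.

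Igfbp5, another binding protein for insulin-like growth factors, had the lowest ratio of the genes named, with a mean of 0.894 reads per 10000 in Ptx3+ cells and 12.4 in the other cells, 12.6 times lower, with class means from 5.56 (upstream-valve-like) to 24.2 (Ptn-Anxa3-Stc1). It was detected in 35.2% of thinned Ptx3+ cells (26.8 to 44.4%) and 76.5% of the other cells (72.2 to 80.3%). Igfbp4, number 14 of the named higher genes, and Igfbp5 thus differed in opposite directions. Ackr3, a decoy receptor that removes the chemokine CXCL12, was 7.71 times lower, with a median of 0.0443 against 3.50 reads per 10000. It was detected in 27.05% (19.4 to 35.8%) against 71.3% (66.9 to 75.5%) of thinned cells.

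Plat, tissue plasminogen activator, was 7.25 times lower, with means of 0.636 in Ptx3+ cells, 1.92 in Fndc1-type cells and 14.3 in upstream-valve-like cells, the highest class. Esam, an endothelial junction and adhesion molecule, was 5.36 times lower, with detection in 9.84% (5.19 to 16.6%) against 43.05% (38.4 to 47.8%) of thinned cells. Crip1, a small LIM-domain protein, was 8.11 times lower and was detected in 27.9% against 75.1%. These 3 genes were lower in the Ptx3+ class than in each other class by their means.

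The remaining 7 of the 12 lowest ratios were Parm1, a mucin-like protein (7.71 times lower), Angptl2, an angiopoietin-like secreted protein (6.85 times), Tspan7, a tetraspanin (6.41 times), Pdlim3, an actin-associated protein (6.04 times), Bcam, a laminin receptor (5.42 times), Htr2b, a serotonin receptor (5.40 times), and Kcnk5, a potassium leak channel (5.24 times). Parm1 was low in both capillary-like classes, with means of 0.0891 in Ptx3+ and 0.137 in Fndc1-type cells against 1.19 to 2.19 in the other classes, and it was not counted as different between the capillary-like classes. Htr2b and Pdlim3 separated them instead, with means of 0.157 and 0.187 in Ptx3+ cells against 2.04 and 2.01 in Fndc1-type cells.

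**Figure D3:**
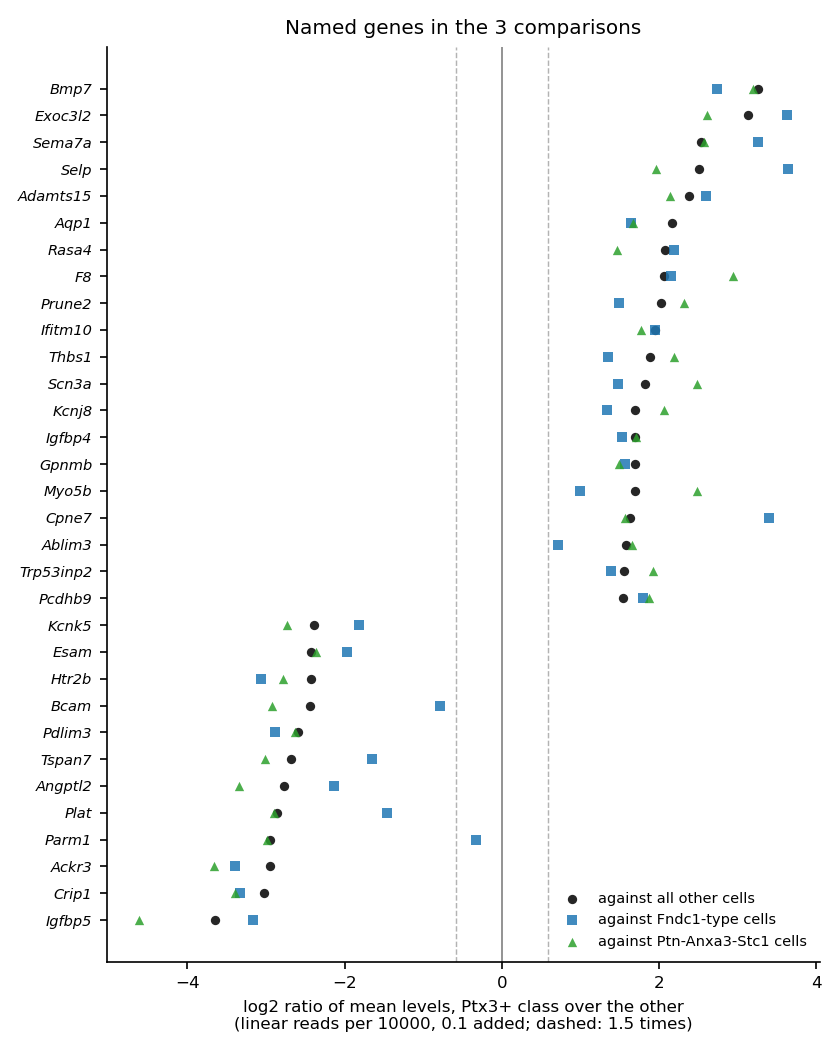
Log2 ratio of mean levels (linear reads per 10000, 0.1 added) of the 20 genes with the highest and the 12 with the lowest ratios, for Ptx3+ cells over all other cells (circles), Fndc1-type cells (squares) and Ptn-Anxa3-Stc1 cells (triangles); dashed lines mark 1.5 times. Bmp7 to Pcdhb9 lie right of the dashed lines in all 3 comparisons, and Parm1 is the gene that lies between them against Fndc1-type cells.

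The second comparison set the Ptx3+ cells against the other class named capillary-like here, that of the Fndc1 type. The study annotated its capillary LECs without Ptx3 by both Fndc1 and Ptn. Here these markers are in different scores, those of the Fndc1-type and the Ptn-Anxa3-Stc1 cells. Of 10212 genes, 1341 (13.1%) were higher and 9.24% were lower in Ptx3+ cells. Against Ptn-Anxa3-Stc1 cells, 1230 of 10161 genes (12.1%) were higher and 9.87% were lower. Of the genes that were higher than in all other cells, 500 (57.1%) were also counted as higher in both of these comparisons, and of the lower genes 51.5% were lower in both. The comparisons share the Ptx3+ cells and are not independent of each other.

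Lyve1, Cxcl12 and Gpihbp1 had higher means in both capillary-like classes than in the other classes. Lyve1 had means of 21.4 reads per 10000 in Ptx3+ and 32.9 in Fndc1-type cells and 5.27 to 9.62 in the other classes, so it was 1.65 times higher than in all other cells, but it was lower than in Fndc1-type cells, with a log2 ratio of -0.62. Cxcl12, a chemokine for CXCR4+ and ACKR3+ cells, had means of 1.47 and 1.30 in the capillary-like classes and 0.327 to 0.520 in the others. Gpihbp1, which anchors lipoprotein lipase to endothelium, had means of 6.24 and 7.14 against 1.75 to 3.33. By contrast, Plvap, a diaphragm protein of fenestrae and caveolae, had a mean of 2.80 in Ptx3+ cells and 0.344 in Fndc1-type cells, the lowest class. Sparc, a collagen-binding matrix protein, had means of 7.55 and 1.01, respectively, with 4.96 to 5.36 in downstream-valve-like and Ptn-Anxa3-Stc1 cells.

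Lymphatic identity genes were examined next. All cells had been sorted as CD31+ PDPN+, so this list does not check the label of the class. All 12 listed genes were compared, Lyve1 and Nrp2, a co-receptor of VEGFR3, were higher, Tek, the Tie2 receptor, was lower (means 1.55 and 3.17, detection in 50.8% and 76.01% of thinned cells), and the list median was 0.32 on the log2 scale. Prox1, the master regulator of lymphatic fate, was detected in 93.4% of thinned Ptx3+ cells and 90.8% of the other cells, Flt4 (VEGFR3) in 99.2% and 99.6%, and Mmrn1 in 100% and 99.6%. The cells of the class thus carried lymphatic endothelial transcripts as the other cells did. Angpt2, a ligand gene of the Tie2 receptor, belongs to the downstream-valve score and was therefore left out of these counts. Of 8 VEGF and Tie receptor system genes compared, Nrp2 was higher and Tek and Vegfd were lower, with a median of 0.17, and Kdr (VEGFR2) had means of 7.33 and 6.94.

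Of 12 scavenger and uptake receptors compared outside the class score, 3 were higher, 1 was lower and the median was 0.14. For this and every other list, 8.66% of all genes were higher and 6.17% lower than in all other cells. Against Fndc1-type cells these background shares were 13.1% and 9.24%. Besides Lyve1, Cd36, a fatty acid and thrombospondin receptor, was 2.24 times higher and detected in 24.6% against 7.62% of thinned cells, and Scarf1, an endothelial scavenger receptor, was 1.83 times higher. Of 20 endocytosis and lysosome genes, Ctsd, the lysosomal protease cathepsin D, was higher (means 15.4 and 6.55, with 6.01 to 7.07 in each other class) and Cav1, the coat protein of caveolae, was lower (means 4.61 and 12.2, with 9.75 to 13.5 in each other class). Both contrasts held against each class. For the other 18 genes, among them Dab2, Cltc, Lamp1 and Ctsb, the ratio to all other cells did not reach 1.5 times, while against Fndc1-type cells Dnm2 and Cd63 were 1.55 and 1.52 times higher.

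Lipid handling genes differed in both directions, with 5 higher and 5 lower among 12. Abca1 and Abcg1, which export cholesterol, were 2.04 and 1.86 times higher, and Abca1 was detected in 92.6% of thinned Ptx3+ cells against 69.1% of the other cells. Cd36 and Gpihbp1, described above, were also among the higher genes, as was Plin2, which coats lipid droplets (1.99 times, though its log2 ratio was 0.03 when the reads of all cells of a class were summed). Fabp4, a fatty acid carrier, Lpl, lipoprotein lipase, and Pparg, a nuclear receptor of lipid metabolism, were 2.67, 2.31 and 1.71 times lower, and Pltp was also among the lower genes. The list median of 0.28 therefore did not describe a common direction.

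Genes of blood flow and clotting were mostly lower than in all other cells, whereas against Fndc1-type cells 5 of 11 were lower, 3 were higher (F8, Plau and Procr) and the median was -0.31. Of the 12 nitric oxide and coagulation genes compared with all other cells, 9 were lower, 2 were higher and the median was -0.79. Nos3, endothelial nitric oxide synthase, had a mean of 0.218 in Ptx3+ cells and 1.27 in the other cells (4.32 times lower) and was detected in 16.4% against 54.3% of thinned cells, with 0.395 in Fndc1-type cells as the next lowest class mean. Plat, described above, was 7.25 times lower, whereas Plau, urokinase, was 2.72 times higher. Anxa2 and S100a10, the subunits of a plasminogen receptor, were 1.55 and 1.70 times lower, and Vwf, the endothelin receptor Ednrb, thrombomodulin (Thbd) and Procr were also lower. Procr was 1.52 times lower than in all other cells but higher than in Fndc1-type cells, with means of 1.21 and 0.437. F8 and Plau were the genes that ran against the direction of the list.

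Of 11 chemokines and chemokine receptors, Cxcl12 was higher and Cxcl1, Ccl7, Ccl27a, Ackr3 and Ackr4 were lower, with a median of -0.32. Ackr4, which scavenges CCL19 and CCL21, had a mean of 0.0357 in Ptx3+ and 0.0193 in Fndc1-type cells and 0.703 and 0.741 in Ptn-Anxa3-Stc1 and precollecting-like cells. Cxcl12 was thus higher and its decoy receptor Ackr3 lower in the same class. Among 14 genes of leukocyte adhesion and lipid-mediator traffic, Selp and the lysophosphatidic acid receptor Lpar6 (2.66 times) were higher and L1cam and Sphk1 were 3.30 and 2.19 times lower, while Icam1, with means of 5.39 and 5.34, did not differ by 1.5 times.

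In the immune regulation list, 3 of 16 genes were higher and 1 was lower. Tnfsf10, the death receptor ligand TRAIL, was 2.23 times higher and detected in 38.5% against 17.3% of thinned cells, Il4ra, a subunit of the interleukin-4 receptor, was 2.04 times higher, and Cd274, the checkpoint ligand PD-L1, was 1.59 times higher. Cd274 was not higher in blocks 1 to 6 of the cell numbers, where its log2 ratio was -0.047. Vsir, a checkpoint regulator, was 1.58 times lower. Among 10 complement and humoral defence genes none was higher and 4 were lower, among them Cd59a, Procr and Thbd, regulators of complement or clotting. Cd59a was low throughout, and its log2 ratio was 0.47 with summed reads. C3, the central complement component, had means of 8.80 and 6.29, under the limit of 1.5 times.

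More antigen presentation and interferon genes were counted as different from Fndc1-type cells than from all other cells together, which was not tested. The share of all genes counted as higher was also larger there (13.1% against 8.66%). Of 13 major histocompatibility complex (MHC) class I genes, H2-M3 was higher (1.56 times), with a list median of 0.27, and none of the 4 class II genes compared was counted. Against Fndc1-type cells 4 of the 13 were higher, with H2-Q4 at 2.20, H2-Q7 at 2.19, Tap2 at 1.71 and H2-K1 at 1.67 times and a median of 0.42, though reads of the H2-Q genes may be shared between near-identical copies. Of 26 type I interferon genes, Rsad2, Bst2 and Parp14 were 1.98, 1.61 and 1.61 times higher and Ifitm2 was 1.59 times lower, 4 of 26 against the background of 8.66% and 6.17%. Against Fndc1-type cells 7 of the 26 were higher, led by Oasl2 (1.86 times) and Stat2 (1.73 times), and Ifitm2 was lower, with a median of 0.22, where 13.1% and 9.24% of all genes were counted. The interferon median was thus no larger there, as it was 0.23 against all other cells. The 6 genes that the study had linked to ageing, chosen on these cells among others, had 1 lower gene, Ifitm2 (means 3.60 and 5.805), whose reads may be shared with its neighbour Ifitm3. Il33, Mcl1, Irf7 and Zbp1 lay between 1.27 and 1.41 times the level in the other cells.

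Of 19 genes of semaphorin, Notch and BMP signalling, Eng, a co-receptor for BMP9, was 1.99 times higher (means 20.1 and 10.1, with 8.80 to 11.6 in each other class). Id2, a target of BMP signalling, was 2.46 times higher, Plxnd1, a semaphorin receptor, 1.72 times and Sema6a 1.52 times higher, and Sema3a was 1.60 times lower. Among 16 valve and flow genes Lama5, Nos3 and Efnb2 were lower. Of 21 transcription factors, Mef2c, Nr2f1 and Tbx1 were 1.62, 2.49 and 1.502 times higher and none was lower, though Nr2f1 was detected in 9.02% of thinned Ptx3+ cells. Of 12 junction proteins Esam differed (lower), and Cdh5 (VE-cadherin), Cldn5 and Tjp1 did not reach 1.5 times.

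The matrix list had 6 higher and 2 lower genes of 18, with a median of 0.31, where 8.66% and 6.17% of all genes were counted. Against Fndc1-type cells 4 of 17 were higher and 3 lower (median 0.20), where 13.1% and 9.24% of all genes were counted. Against Ptn-Anxa3-Stc1 cells 4 of 18 were higher and 4 lower (median 0.17), where 12.1% and 9.87% were counted. Compared with all other cells, Nid1 and Nid2, which link laminin to collagen IV, were 1.796 and 2.15 times higher and Fbln2 2.42 times. Sparc was 2.51 times, the heparan sulfate proteoglycan Hspg2 1.63 times and Col4a2 1.53 times higher, while Lamb1 and Mmrn2 were 1.66 and 1.71 times lower. Growth factors and binding proteins had 4 higher and 3 lower of 14. Igfbp7 was 2.37 times higher (detected in 86.9% against 57.2% of thinned cells), Ctgf and Pdgfb were 2.31 and 1.90 times higher, and Igfbp3 was 5.12 times lower, with a mean of 0.00948. Igf1 was 1.86 times lower at means of 0.0370 and 0.155, though its log2 ratio was 0.062 with summed reads. The binding proteins for insulin-like growth factors therefore divided into Igfbp4 and Igfbp7 on the higher side and Igfbp3 and Igfbp5 on the lower side.

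The selenium and oxidative defence list, to which Gpx3 belongs, had 3 higher and 2 lower of 21 genes outside the class score. Of these, Selenop, the selenium carrier of plasma, was 2.06 times higher (means 62.5 and 30.3, with 19.7 to 38.5 in the other classes), Hmox1, haem oxygenase 1, 1.96 times and Sod3, extracellular superoxide dismutase, 1.56 times higher. Nqo1, a quinone reductase, and Gclc, of glutathione synthesis, were 3.15 and 1.66 times lower, and the intracellular peroxidases Gpx1 (means 10.2 and 10.1) and Gpx4 (means 8.70 and 9.26) did not reach 1.5 times. The median of the list was -0.03.

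Cell-cycle arrest and apoptosis genes had 3 higher and 2 lower of 17. Bcl2, which inhibits apoptosis, was 3.90 times higher, and Bcl2l11 (BIM), which promotes it, was 1.68 times higher. Cdkn1a, the p21 inhibitor of the cell cycle, was 1.94 times lower. Gdf15 was 3.23 times lower than in all other cells, but its mean of 24.01 in upstream-valve-like cells carried that ratio, and against Fndc1-type cells it was higher (1.48 and 0.329). Of 5 genes of the hyaluronan matrix list, Lyve1 was higher and Itih2, a relative of Itih5, was 2.13 times lower.

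**Figure D4:**
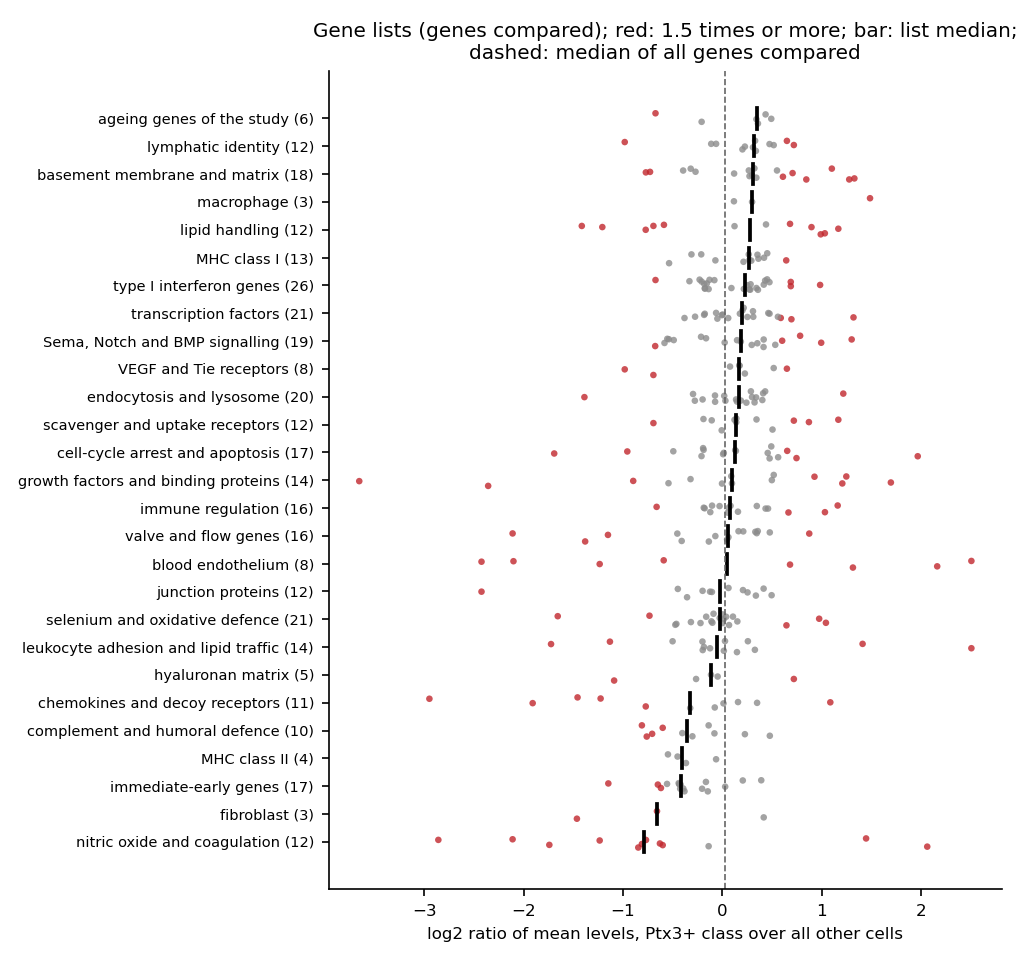
Log2 ratio of mean levels of Ptx3+ cells over all other cells for each gene compared, by gene list, with the number of genes in brackets; red points differ by at least 1.5 times, bars are list medians and the dashed line is the median of all genes, 0.03. The nitric oxide and coagulation list lies lowest (median -0.79), and most lists have red points on both sides.

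Markers of other cell types were examined beside these values. Of the macrophage list, 3 of 15 genes were detected widely enough to be compared, and Cd14 was 2.80 times higher in Ptx3+ cells. The summed level of the list ranged from 0 to 13.1 reads per 10000 in Ptx3+ cells and from 0 to 18.5 in the other cells, with medians of 0, and 48.2% and 35.01% of cells had any read of it. Any read of the macrophage list was found in 25.6% of Fndc1-type and 35.96% of Ptn-Anxa3-Stc1 cells. Against Fndc1-type cells 2 of the 3 genes compared were higher (median 1.04), and against Ptn-Anxa3-Stc1 cells 3 of 3 were (median 0.82). Of all genes, 13.1% and 12.1% were higher in these comparisons. Reads of Ptprc, Csf1r, C1qa, Tyrobp or Lyz2 were found in 7.91% of Ptx3+ and 9.28% of other cells, and without such cells none of the named ratios changed its side or moved beyond its limit. Of the 8 blood endothelial markers compared, 4 were higher (Aqp1, Selp, Plvap, Gpihbp1) and 4 lower (Esam, Car4, Vwf, Emcn), and the summed level had a median of 77.1 in Ptx3+ cells and 19.6 in the other cells, led by Aqp1. The fibroblast list had a median sum of 0.227 against 0.960, with Gsn 2.76 times and Dcn 1.58 times lower, but the log2 ratio of Dcn was 0.015 with summed reads and 0.77 for the Louvain cluster. Against Fndc1-type cells, Dcn and Col3a1 were 2.04 and 2.31 times higher, 2 of the 3 fibroblast genes compared, and none was lower. Flt1, a defining receptor of blood endothelium, had a read in 4 Ptx3+ cells, and Ackr1 and Ly6c1 in 0. Reads of the listed epithelial genes were found in 0.719% of Ptx3+ cells and 0.580% of the other cells. The shares were 5.04% and 2.51% for other leukocyte genes, 3.60% and 9.86% for glial genes and 9.35% and 8.12% for mural genes. The median level was 0 in each list, and no gene of these lists was detected widely enough to be compared. Of the cycling genes, Mcm2 was 1.88 times lower and Mki67 had a read in 6 Ptx3+ cells. What part such cells or transcripts have in the ratios above was not tested.

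Immediate-early genes, which handling of tissue can induce, stood differently in the comparisons. Of 17 genes, Atf3, Ier3 and Zfp36 were 2.21, 1.57 and 1.54 times lower than in all other cells, none was higher, and the median was -0.42. Against Fndc1-type cells 4 were higher (Nr4a1, Socs3, Fosl2 and Hspa1a) and Atf3 was lower, with a median of -0.0024. Several genes of this list were among those that varied most among the Ptx3+ cells themselves. Among 5046 genes detected in at least 30% of the class, the variance left after a trend with the mean was highest for Fos and then for Socs3, Gm26917, Junb, Atf3, Irf1, Cyr61, Jun, Zfp36 and Dusp1. Fos had 0.570 reads per 10000 at the 10th percentile of Ptx3+ cells, 26.7 at the median and 202.02 at the 90th. The part of this variation in the values above was not tested.

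The Ptx3+ cells with a Ptx3 read were next set against those without at the same depth of 20000 reads. The 37 cells with a read had a median score of 1.39 and the 85 without one 0.702, a difference that Ptx3 itself contributes to. Stab2 was detected in 91.9% (78.1 to 98.3%) and 72.9% (62.2 to 82.01%) and Mrc1 in 89.2% (74.6 to 96.97%) and 69.4% (58.5 to 78.95%), whereas Itih5 was detected in 51.4% and 56.5% and Gpx3 in 67.6% and 74.1%. The intervals overlapped for all 4 genes, and all of them belong to the score that chose the cells, so these shares are a description.

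By the largest ratios, N4bp1, Pld2, Fam171a1, Ttc33 and Hectd4 were higher in Ptx3+ cells with a Ptx3 read, by 3.48 to 4.98 times. Fam171a1, a membrane protein, was detected in 51.4% (34.4 to 68.1%) and 16.5% (9.31 to 26.1%). Csnk1g1, Nts, Apoe, Apod and Nup62 were higher in cells without one, by 4.13 to 4.75 times. Apod, a secreted lipocalin, was detected in 16.2% (6.19 to 32.01%) of cells with a Ptx3 read and 40% (29.5 to 51.2%) of those without. These genes are the extremes of 3722 genes ranked over few cells, so they are given as values only. Before thinning, the cells with a Ptx3 read had a median of 136500 reads and those without one 207225.

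The share of Ptx3+ cells differed along the cell numbers. It was 17.7% (14.2 to 21.8%) in blocks 1 to 6 and 27.2% (21.7 to 33.3%) in blocks 7 to 12, and over single blocks it ranged from 10.9% (4.11 to 22.2%) to 34.8% (21.4 to 50.2%). Median reads per cell also differed between the blocks, from 52583 to 2450279.5. What the numbers stand for is not given in the labels, and whether the share is tied to plates, animals or depth was not tested. The named genes were required to be on the same side in both sets of blocks, but their size differed. Bmp7 was 7.76 and 11.3 times higher and Aqp1 4.12 and 5.23 times higher in blocks 1 to 6 and 7 to 12, respectively, whereas Pcdhb9 was 4.34 and 1.48 times, F8 5.27 and 2.95 times and Scn3a 4.41 and 2.55 times higher. Among the lower genes, Ackr3 was 5.49 and 15.1 times, Bcam 4.03 and 8.85 times and Esam 4.04 and 8.53 times lower.

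**Figure D5:**
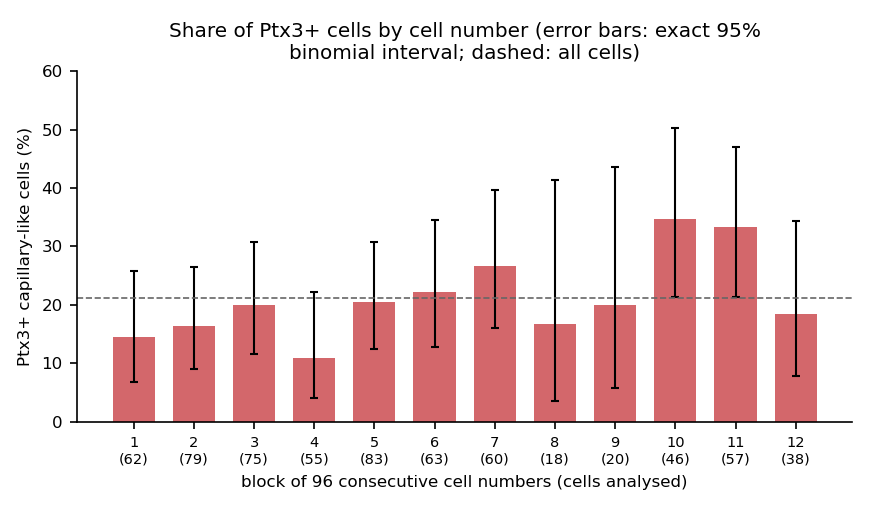
Share of Ptx3+ capillary-like cells (percent) in 12 blocks of 96 consecutive cell numbers, with the number of cells analysed in brackets; error bars are exact 95% binomial intervals and the dashed line is the share in all cells, 21.2%. The lowest block is at 10.9% and the highest at 34.8%.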

How the data were processed

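Single CD31+ PDPN+ cells had been sequenced by Smart-seq3. According to the methods and the labels, the authors aligned reads to mm10 with STAR, counted them per gene with featureCounts (Subread), kept cells with at least 2000 genes and at most 10% mitochondrial reads, and normalised with Seurat (4.1.0). The deposited table of 23168 genes by 656 of the 1152 labelled cells held natural log values of 1 plus reads per 10000, since only with that base did every cell sum to 10000 on the linear scale. Dividing by the smallest value of a cell gave whole reads for 100% of values (tolerance 0.01 reads). Reads, not unique molecules, had been counted, so intervals cover counting error only. How reads of several genes were treated is not given in the sources used here.

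The Ptx3+ class held 139 cells, the Fndc1-type 117, the Ptn-Anxa3-Stc1 class 114 and all cells outside the Ptx3+ class 517, of which 122, 103, 97 and 446 remained after thinning. Genes counted as higher and lower numbered 875 and 623 against all other cells, 1341 and 944 against Fndc1-type cells and 1230 and 1003 against Ptn-Anxa3-Stc1 cells. Members, class genes, gene lists and the naming rule were chosen with earlier results of these data known. Outside the 31 class genes, mitochondrial, ribosomal protein and unnamed gene models, the genes named were those of the 33 lists, the 20 highest and 12 lowest ratios (detected in at least 30% of the higher set, on the same side in all 3 comparisons and both sets of cell numbers, up to 576 and over), the 10 most variable genes of the class and the 5 largest ratios each way by Ptx3 read. Of 477 listed genes 439 were analysed here. Ratios are of mean linear reads per 10000 with 0.1 added. Shares have exact (Clopper-Pearson) 95% intervals (scipy 1.17.1). Cells were thinned to 20000 reads, which left out 88. Louvain clustering used Seurat 5.3.0 (15 principal components, 2000 variable genes, resolution 0.7). The computation of read recovery and class assignment was checked on simulated reads. Class genes were set there to the means of the assigned classes, so this check cannot show how distinct the classes are. Doublets were not called, as cells had been sorted into single wells, and whether a well held more than 1 cell was not tested. Upstream sequences were taken from RefSeq, for 6 of 6 class genes and 12 of 20 named higher genes; Bmp7, Adamts15, Thbs1, Scn3a, Myo5b, Cpne7, Ablim3 and Pcdhb9 were not matched in the table used here. Gene exons were those of GENCODE M21. The alternatives covered the class score, the limit, the value added, depth, cell filters, cell numbers, summed reads and the cluster in place of the class. A few listed genes are counted with their lists but not reported here by name.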

Additional observations from a re-analysis of the deposited data

How the results depend on the processing

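No paired analysis was possible because the cells came from 1 pool with no replicate shared between groups, and for the same reason no replicate could be left out in turn. The share of Ptx3+ cells lay between 19.1% and 21.6% under the other scores and cell filters, with 81.3% to 100% of the same cells kept, and was 17.8% when a margin of 0.2 over the next class was required, as that construction demands. How many genes were counted rested on the rule, and is given here as a share of the 10103, 10212 or 10161 genes compared. The 8.66% higher and 6.17% lower than in all other cells became 1.90% and 1.99% at a limit of 2 times, 1.97% and 1.88% with 0.5 added in place of 0.1, and 15.3% and 14.4% when reads were summed over cells, where deep cells weigh most. The lower genes made up 10.6% in blocks 1 to 6 of the cell numbers, 11.4% in blocks 7 to 12 and 3.94% for the Louvain cluster. Against Fndc1-type cells, 13.1% higher and 9.24% lower became 3.66% and 2.53% at 2 times, 2.97% and 2.41% with 0.5 added, 22.6% and 15.8% in blocks 7 to 12, and 21.8% and 16.7% with summed reads. Against Ptn-Anxa3-Stc1 cells, 12.1% and 9.87% became 3.29% and 2.992%, 2.86% and 2.71%, 19.96% and 16.996%, and 24.6% and 17.4%, in the same order of settings. Limits and added values of that kind remove genes by their construction, and what moved the others was not tested. The remaining counts stayed within 1.5 times.

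Of the named genes counted as different from all other cells, all but 1 kept their side and size with thinned reads, and all did without cells with a haematopoietic read. On the natural log scale 75 of these genes moved in size and 51 did not, so most of them moved there. With 0.5 added, 38 moved and 88 did not. Neither setting changed a side. With summed reads 28 moved in size and 3 changed side, and with the Louvain cluster 25 moved and 1 changed side. The side changed for Cd59a (log2 ratio 0.47 with summed reads), Igf1 (0.062, summed reads), Dcn (0.015, summed reads, and 0.77, Louvain cluster) and Cd274 (-0.047, blocks 1 to 6).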
